A study of Rattus norvegicus with 15 samples.

Results

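Mesenteric artery was compared with kidney cortex in rats, using all 8 artery libraries and all 7 kidney cortex libraries, which are all 15 libraries of the series. The members are the libraries with either tissue in their title, and the genes compared are the 17842 of 34357 named genes averaging 0.5 FPKM or more in either tissue. FPKM is a fragment count corrected for transcript length and library size. The animals were Dahl salt-sensitive (SS) rats, an inbred line prone to hypertension when fed much salt. They were wild-type, or carried a 30.4 kb deletion of noncoding DNA on chromosome 2 (rn7, 60825801 to 60856216) that is the counterpart of a human haplotype region. The arteries were 4 wild-type and 4 deletion samples, the kidney cortices 3 and 4, and every title calls its sample male. Total RNA was measured. Diet, age, the number of deletion lines and how the vessels were cleaned of surrounding tissue are not given in the sources used here. The labels do not state whether libraries come from separate animals or whether any kidney and artery share one, so the errors and p-values below measure the spread between these libraries, which may in part be technical.

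Mesenteric arteries are small muscular vessels that carry blood to the gut and set a share of the resistance to blood flow. Their wall is made of endothelium, smooth muscle and a fibroblast-rich outer coat with nerve endings, and it lies in fat covered by mesothelium. Kidney cortex is mostly proximal tubule, an epithelium that takes back filtered solutes with energy from respiration, beside glomeruli, thick ascending limb, distal tubule and collecting duct.

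Depth is unknown, because the files give FPKM and no counts of reads, so no counting interval or detection limit can be given. The FPKM of a library summed to 285679 to 433477 in artery and 376270.0 to 459847 in kidney cortex. Haemoglobin transcripts took 1.61% to 33% of the artery sums, with the highest share in wild-type artery 4, and 0.561% to 1.53% of the kidney sums. The noncoding RNA Rn7sl1 took 1.89% to 12.7% in artery and 8.23% to 22% in kidney cortex. Wild-type kidney 3 went against its label: Xist, which coats the silenced X chromosome, was at 81.1 FPKM there and at 0.124 to 0.432 in the other 6 kidneys, and the Y-linked genes Kdm5d, Eif2s3y, Uty and Ddx3 were listed at 0 in it alone. It is called below the library labelled wild-type kidney 3. Of the 39 gene lists, 7 changed in their counts of calls without it, and these are given both ways.

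Tissue was by far the main difference between the libraries. Over the genes tested, 86.2% of the variance of log2(FPKM + 0.5) lay between the tissues, and libraries correlated at 0.943 to 0.982 among arteries, 0.955 to 0.992 among kidneys and 0.632 to 0.691 between tissues (Pearson's r across genes, which are not independent replicates). With limma on log2(FPKM + 0.5), genotype as covariate and Benjamini-Hochberg adjustment over all 17842 genes, 7562 genes (42.4%) were higher in artery and 6256 (35.1%) higher in kidney cortex at an adjusted p under 0.05, 77.4% in all. These shares are the background for every count below: a list near them does not stand apart. Without the library labelled wild-type kidney 3 the counts were 7261 and 6228. Log2 differences are artery minus kidney cortex throughout; the pseudocount of 0.5 makes them understate the change of genes near 0. A difference of bulk tissue can reflect fewer cells of a type or less RNA per cell, and the 2 cannot be told apart.

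Differences past 16-fold were more often on the kidney side, and the split past 4-fold depended on the scaling and the pseudocount. At least 4-fold higher levels were called for 1352 genes (7.58%) in artery and 1307 (7.33%) in kidney cortex, which were 1315 and 1296 without the library labelled wild-type kidney 3. The split was 2496 and 1353 with every library set to the TPM sum, 1723 and 1080 at the mean FPKM sum, 2623 and 1460 with haemoglobin, Rn7sl1 and mitochondrial genes left out of the sum, and 1208 and 1424 with median-of-ratios scaling. Past 16-fold, 205 genes were higher in artery and 404 in kidney cortex (208 and 403 without the library labelled wild-type kidney 3), and the kidney side was also the larger under 5 other scalings, with 422 and 498 at the TPM sum. Past 64-fold there were 35 and 161. For 4591 genes (25.7%) every artery was above every kidney, and for 4310 (24.2%) every kidney was above every artery, which were 4668 and 4553 without that library. Among genes averaging 100 FPKM or more, 194 were shared by both tissues, which is 56.9% of the 341 such genes of artery and 34.5% of the 563 of kidney cortex. The median log2 difference of all genes was 0.13, and the median size of a difference was 0.73 with a median SE of 0.13. Scaling moved this centre: setting every library to the same FPKM sum raised the median by 0.305 and turned the split of calls from 54.7% to 68.8% higher in artery, and median-of-ratios scaling shifted it by -0.13 and gave 48.8%.

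**Figure D1:**
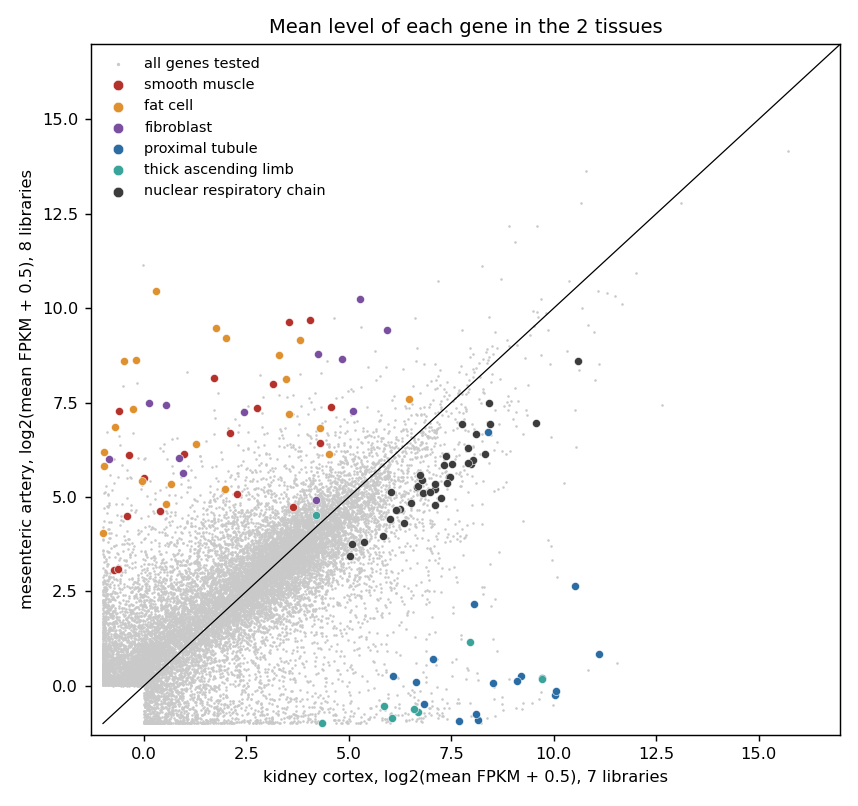
Mean level of each of the 17842 genes tested in kidney cortex (x axis, 7 libraries) and mesenteric artery (y axis, 8 libraries), both as log2(mean FPKM + 0.5); the line marks equal levels and coloured dots are 6 gene lists. Smooth muscle, fat cell and fibroblast genes lie above the line, proximal tubule and most thick ascending limb genes far below it, and nuclear respiratory chain genes in a band just below it.

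The 6 markers of the tissues separated the libraries without overlap. Acta2, the smooth muscle actin (rn7, chr1:231746527-231759307), stood at 512 to 1074 FPKM (median 820.4) in the arteries and at 7.41 to 18.7 FPKM (median 10.3) in the kidneys, a log2 difference of 6.12 (SE 0.22, limma adjusted p = 1.51e-13). Myh11, the smooth muscle myosin heavy chain (chr10:743364-838459), ran from 162 to 392 FPKM (median 283) in artery against 1.46 to 6.12 FPKM (median 2.37) in kidney cortex, a difference of 6.49 (SE 0.23, limma adjusted p = 1.2e-13). Adipoq encodes adiponectin, a hormone of fat cells (chr11:77721912-77735644), and reached 529.5 to 1053 FPKM (median 653) in the arteries and 2.23 to 4.07 FPKM (median 2.62) in the kidneys, a difference of 7.73 (SE 0.15, limma adjusted p = 8.07e-17). Every artery thus carried a fat cell marker at a level of the same order as its smooth muscle markers.

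On the kidney side, Slc34a1, the sodium-phosphate cotransporter of the proximal tubule (chr17:9218876-9233852), was at 892 to 1187 FPKM (median 1040.0) in the kidneys and 0 to 1.06 FPKM (median 0.207) in the arteries, a difference of -10.39 (SE 0.22, limma adjusted p = 1.38e-16). Lrp2, the endocytic receptor megalin of the same cells (chr3:54189305-54346769), was at 387 to 764 FPKM (median 588) against 0.159 to 1.27 FPKM (median 0.745), a difference of -9.02 (SE 0.19, limma adjusted p = 1.49e-16). Umod, which encodes uromodulin of the thick ascending limb (chr1:173816341-173829681), was at 626 to 1126 FPKM (median 833) against 0.0984 to 2.56 FPKM (median 0.345), a difference of -9.75 (SE 0.29, limma adjusted p = 1.37e-14). All 6 called differences kept their direction and call in each fit that left out 1 library.

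Smooth muscle, pericyte, fibroblast and fibrillar collagen lists were higher in artery in every gene tested, and the elastic fibre and basement membrane lists in most. Of the smooth muscle list, 18 of 18 genes were higher in artery and none in kidney cortex, with a median log2 difference of 4.75. Tagln, the actin-binding protein transgelin, stood at 485 to 1099 FPKM (median 867) in artery and 10.7 to 22.2 FPKM (median 14.8) in kidney cortex. Myl9, a regulatory light chain of smooth muscle myosin, stood at 162 to 337 FPKM (median 259) and 6.53 to 10.4 FPKM (median 8.39). The summed list ran from 1963 to 3889 FPKM (median 3306) in the arteries, lowest in wild-type artery 3, to 88 to 167 FPKM (median 105) in the kidneys, highest in deletion kidney 2. All 7 pericyte genes were higher in artery, with a median of 2.69, led by Rgs5, a regulator of G protein signalling at 54.1 against 6.56 FPKM (medians), and Abcc9, a subunit of a potassium channel of mural cells, at 50.6 against 5.62.

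Fibroblast genes behaved alike, with 12 of 12 higher in artery and a median of 4.73. Col3a1, a fibrillar collagen chain, reached 939 to 1681 FPKM (median 1135) in artery against 29.4 to 50.1 FPKM (median 39.1) in kidney cortex, and Dcn, the small proteoglycan decorin, 383 to 1195 FPKM (median 681) against 50.7 to 73.8 FPKM (median 62.6). Fibrillar collagens and small proteoglycans as a list gave 14 of 14 higher in artery and a median of 3.67; the lists share genes, Col1a1 (difference 4.55 (SE 0.14)) and Col1a2 (3.83 (SE 0.12)) among them. The elastic fibre list gave 13 higher in artery and 2 higher in kidney cortex of 15, with a median of 2.76. Eln, the elastin that lets arteries recoil, was at 84.8 to 369 FPKM (median 197) against 2.26 to 3.72 FPKM (median 3.09), a difference of 5.82 (SE 0.23). Fbn1, the fibrillin scaffold of elastic fibres, differed by 4.50 (SE 0.17), Ltbp4 by 2.18 (SE 0.094) and Mfap5, a microfibril protein, by 6.82 (SE 0.15). The exceptions were Emilin1, at 6.17 FPKM in artery and 9.79 in kidney cortex (medians; difference -0.72 (SE 0.13)), and Fbln5, at 37.1 and 51.9 (-0.50 (SE 0.13)), whose call was lost when libraries were set to the same sum.

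Basement membrane genes split by chain. Of 22 tested, 16 were higher in artery and 4 in kidney cortex, with a median of 1.14. Col15a1, a collagen of the zone under vessel endothelium and muscle, differed by 4.61 (SE 0.13), and Hspg2, the proteoglycan perlecan, by 3.60 (SE 0.13). The ubiquitous type IV collagen chains Col4a1 and Col4a2 differed by 1.23 (SE 0.12) and 1.28 (SE 0.11). Col4a4, a chain of the glomerular basement membrane, was the other way, at 38.3 to 146 FPKM (median 65.7) in kidney cortex and 4.95 to 8.41 FPKM (median 6.7) in artery, and the laminin chain Lama1 stood at 5.51 FPKM in kidney cortex and 0.0144 in artery (medians).

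Endothelial genes were higher in artery in 17 of 17, with a smaller median of 2.01 and with levels in kidney cortex well above 0; 16 of 17 were called without the library labelled wild-type kidney 3, and likewise without any 1 of 8 other libraries. Pecam1, an adhesion molecule between endothelial cells, was at 129 to 203 FPKM (median 172) in artery and 16.7 to 23.4 FPKM (median 18.9) in kidney cortex. Vwf, the von Willebrand factor of clotting, was at 75.5 to 132 FPKM (median 116) and 1.6 to 8.32 FPKM (median 2.88), the largest difference of the list (4.89 (SE 0.21)). Tek, the angiopoietin receptor, differed by 1.71 (SE 0.13) and Cldn5, a claudin of endothelial junctions, by 2.31 (SE 0.13). Lymphatic endothelium gave 6 of 6 and a median of 3.32: the lymph-homing chemokine Ccl21 stood at 136 against 2.79 FPKM and Mmrn1 at 64.4 against 0.45 (medians).

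**Figure D2:**
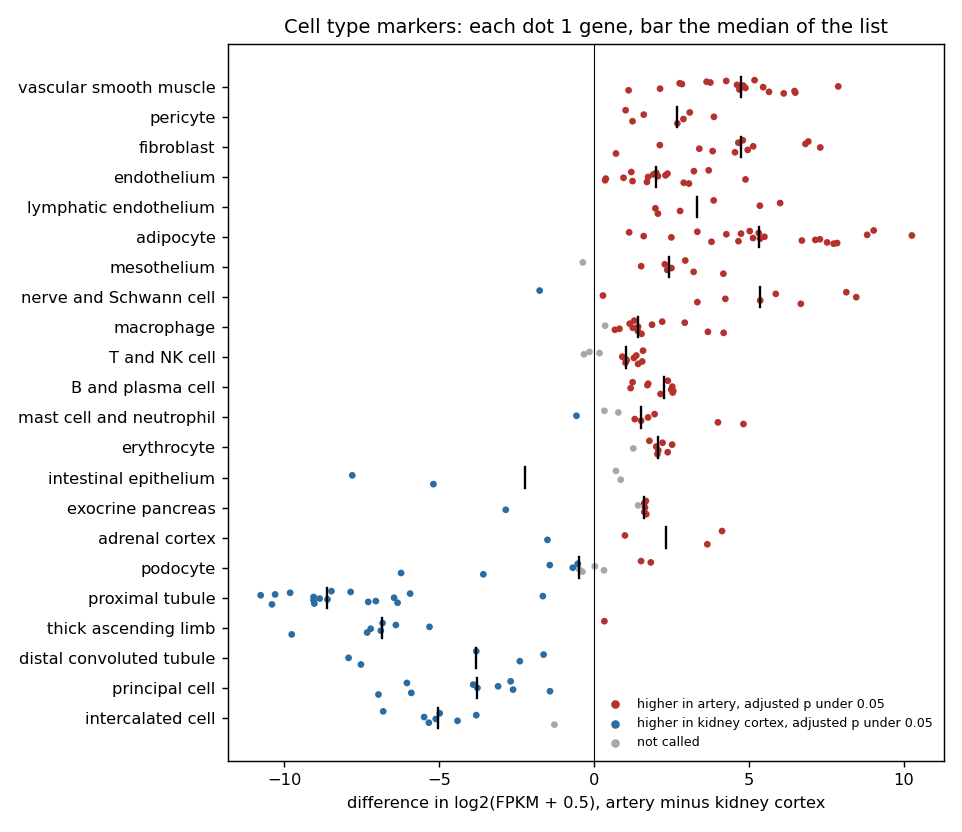
Difference in log2(FPKM + 0.5), artery minus kidney cortex (x axis), for every tested gene of 22 cell type lists (y axis); red and blue dots passed the limma test, grey dots did not, and black bars are list medians. Wall, fat and nerve lists lie to the right, nephron lists to the left, and the podocyte list spans 0 with a median of -0.48.

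Fat and nerve genes were among the most artery-biased. All 22 adipocyte genes tested were higher in artery, with a median of 5.34, and Ucp1 of brown fat was below the filter, at 0.0192 to 3.16 FPKM in the arteries. Car3, a carbonic anhydrase abundant in fat, ran from 959.5 to 2186 FPKM (median 1237) in artery against 0.112 to 1.33 FPKM (median 0.728) in kidney cortex, a difference of 10.25 (SE 0.21, limma adjusted p = 1.44e-16). Fabp4, the fatty acid carrier of fat cells, was at 426 to 936 FPKM (median 507) against 1.68 to 6.7 FPKM (median 2.75). Lpl, the lipase that frees fatty acids from lipoproteins, was at 449 to 900.1 FPKM (median 491) against 10.9 to 19.4 FPKM (median 12). The summed adipocyte list was highest in deletion artery 2 (8854 FPKM) and lowest in wild-type artery 2 (4355), and was 156 to 239 FPKM (median 184) in the kidneys.

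Of the nerve and Schwann cell list, 8 of 9 tested genes were higher in artery and 1 in kidney cortex, with a median of 5.36, and 7 of 9 without the library labelled wild-type kidney 3 or any 1 of 10 others. Scn7a, a sodium channel of glia, was at 144 to 421 FPKM (median 251) in artery against 0.143 to 0.794 FPKM (median 0.342), and S100b, a calcium-binding protein of glia that fat cells also make, at 192 to 363 FPKM (median 232) against 0.0871 to 0.304 FPKM (median 0.166). Th and Dbh, the noradrenaline enzymes of sympathetic neurons, were below the filter, with at most 0.766 and 0.326 FPKM in any artery. The gene higher in kidney cortex was Gfra3, a receptor of the GDNF family, at 8.95 against 2.67 (medians).

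Other cell types differed in how evenly the arteries carried them. Macrophage genes were higher in artery in 13 of 14, with a median of 1.42: Mrc1, the mannose receptor, was at 15.4 to 28 FPKM (median 18.2) against 0.617 to 2.15 FPKM (median 1.09), and Csf1r, the receptor that keeps macrophages alive, at 19.7 to 48.5 FPKM (median 26) against 5.83 to 13.9 FPKM (median 11.4). C1qc and C1qa, chains of complement C1q, differed by 1.42 (SE 0.25) and 0.82 (SE 0.22). T and NK cell genes gave 9 of 12 and a median of 1.04, with Cd4 at 12.5 to 33.3 FPKM (median 15.8) against 6.14 to 11.9 FPKM (median 9.08) and Cd3g, called at an adjusted p of 0.0244 by limma, at 0.331 to 18.5 FPKM (median 2.54) against 0.427 to 1.21 FPKM (median 0.651). The 3 not called were Nkg7, Klrd1 and Gzma, the NK and cytotoxic cell genes of the list. Without deletion artery 2, 7 of 12 were called, and without the library labelled wild-type kidney 3, or any 1 of 8 others, 8 were called.

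B and plasma cell genes gave 10 of 10 and a median of 2.26, with a wide range among arteries; 9 of 10 were called without deletion artery 2, wild-type kidney 2 or the library labelled wild-type kidney 3. Their sum was 236 FPKM in wild-type artery 3, 153 in deletion artery 2, 64.4 in deletion artery 3 and 7.41 to 21.4 in the other 5 arteries, against 1.69 to 3.84 FPKM (median 2.62) in the kidneys. Jchain, the joining chain of antibodies, was at 0.789 to 78.5 FPKM (median 4.4) in artery and 0.51 to 1.29 FPKM (median 0.958) in kidney cortex, and Cr2, a complement receptor of B cells, at 0.306 to 34.8 FPKM (median 0.866) against 0 to 0.0448 FPKM (median 0.0307). Ms4a1 and Cd79a followed, with differences of 2.49 (SE 0.70) and 2.54 (SE 0.47). Wild-type artery 3 also held the highest Marco (71.1 FPKM, median over arteries 3.17) and Clec4m (87.4, median 3.08), scavenger and lectin receptors of sinus-lining cells. Whether this artery held lymphoid tissue was not tested.

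Mast cell and neutrophil genes gave 6 higher in artery and 1 in kidney cortex of 9. The 2 not called were S100a8 and S100a9, the neutrophil genes of the list. The mast cell proteases Cpa3 and Cma1 were at 2.95 to 84.9 FPKM (median 13.7) and 2.99 to 35.2 FPKM (median 8.17) in artery, and near 0 in kidney cortex (0 to 0.0889 and 0 to 0.201 FPKM). Kit, a receptor of mast cells that tubule cells can also express, was the exception, at 4.92 against 7.53 FPKM (medians), a call lost under the same-sum scaling. Mesothelial genes gave 7 of 8: Msln, mesothelin of the peritoneal lining, was at 0.586 to 82 FPKM (median 11.3) in artery against 0 to 0.132 FPKM (median 0.0352), and Upk3b at 0.404 to 26.5 FPKM (median 4.9) against 0 to 0.0543 FPKM (median 0.0267). The summed mesothelial list was 215 FPKM in deletion artery 2 and 21.5 to 95.5 in the other 7, against 20.7 to 32.3 FPKM in the kidneys. The sums of wild-type artery 2 (21.5) and deletion artery 4 (21.8) thus lay within the kidney range, but single genes did not all do so. For 5 of the 8 genes, Msln among them, every artery was above every kidney, against 25.7% of all genes tested. Msln was at 0.586 FPKM in wild-type artery 2 and 1.18 in deletion artery 4. The gene not called was Gpm6a, at a difference of -0.36.

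Blood, pancreas and gut transcripts were uneven across the arteries. Hba-a1, an alpha globin, was at 1952 to 53241 FPKM (median 7292) in artery against 892 to 2233 FPKM (median 1808), and Hbb at 941 to 30793 FPKM (median 3273) against 802 to 2247 FPKM (median 1620.3); the globin copies are near-identical, so reads may be split between them. Of the erythrocyte list, 7 of 8 were higher in artery, and Hbb was not called (difference 1.27 (SE 0.59), limma adjusted p = 0.0604). Pancreatic enzymes summed to 68.2 FPKM in wild-type artery 4 and 79.4 in deletion artery 4, and to 0.596 to 7.5 in the other 6. Trypsinogen Prss1 was at 0 to 16.7 FPKM (median 0.48) in artery, lipase Pnlip at 0 to 12.5 FPKM (median 0.457), carboxyl ester lipase Cel at 0.103 to 12.5 FPKM (median 0.545) and amylase Amy2a3 at 0 to 13.3 FPKM (median 0.41). These 4 were among the 5 of 7 called higher in artery, and these calls rested on few libraries. Without deletion artery 4, the artery with the highest sum, none of the 4 was called, and 1 of 7 was. Without wild-type kidney 2 the count was 2 of 7, and without wild-type artery 4, wild-type kidney 1 or the library labelled wild-type kidney 3 it was 3. Prss1 lost its call under 18 of 31 alternatives. Cela1 was higher in kidney cortex, at 9.18 against 0.579 (medians). Epithelial markers of the gut were high in kidney cortex itself, with Epcam at 138 to 223 FPKM (median 188) and the brush border protein Vil1 at 20.5 to 41.5 FPKM (median 33.3); among arteries both were highest in wild-type artery 1 (4.43 and 5.91 FPKM), which also held Fabp2 of enterocytes at 14.7 FPKM (artery median 0.0272).

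The adrenal cortex list was also partly higher in artery, in 3 of 4 tested genes, evenly across libraries. Star, which carries cholesterol into mitochondria, was at 8.38 to 26.1 FPKM (median 19.5) against 0.471 to 1.72 FPKM (median 1), and Mc2r, the receptor of ACTH that rodent fat cells also carry, at 7.75 to 14.3 FPKM (median 11.1) against 0.0305 to 0.246 FPKM (median 0.136). Cyp11a1, the first enzyme of steroid synthesis, was the other way, at 0.295 against 1.72 FPKM (medians). The defining adrenal enzymes Cyp11b1 and Cyp11b2 reached at most 0.0729 and 0.0487 FPKM in any artery.

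**Figure D3:**
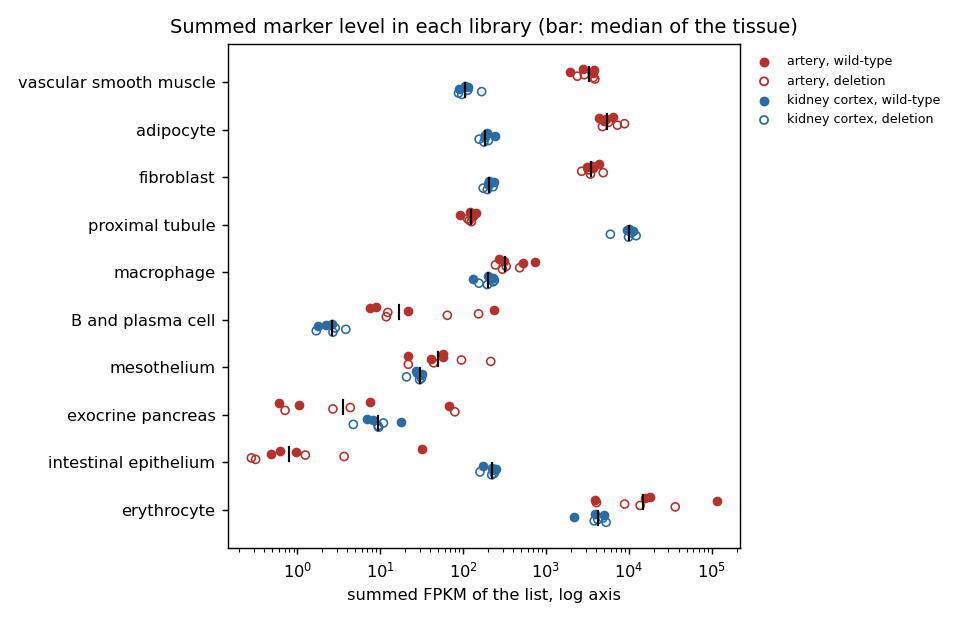
Summed FPKM of 10 marker lists in each library (x axis, log scale) for 8 arteries (red) and 7 kidney cortices (blue), wild-type filled and deletion open, with a bar at the median of each tissue. Adipocyte sums of the arteries run from 4355 to 8854 FPKM, B cell sums run from 7.41 to 236 FPKM and pancreatic sums from 0.596 to 79.4 FPKM.

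Nephron genes were higher in kidney cortex segment by segment. All 17 proximal tubule genes were, with a median log2 difference of -8.60, and every kidney was above every artery for each of them. Kap, the kidney androgen-regulated protein, was at 1153 to 3317 FPKM (median 2157) in kidney cortex against 0.0554 to 4 FPKM (median 0.426) in artery. Gatm, the first enzyme of creatine synthesis, was at 917 to 1890.2 FPKM (median 1593) against 4.37 to 7.29 FPKM (median 5.66), and Miox, which opens the ring of inositol, at 650.2 to 1290.5 FPKM (median 1081) against 0 to 1.09 FPKM (median 0.33). The summed list was 5974 to 12225 FPKM (median 10056) in the kidneys, lowest in deletion kidney 2, and 91.9 to 144 FPKM (median 123) in the arteries. Most of the artery sum was the water channel Aqp1, at 78.9 to 120 FPKM in the arteries and 190 to 456 FPKM in the kidneys.

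Of the thick ascending limb list 7 of 8 were higher in kidney cortex, with a median of -6.85. Egf, the precursor of epidermal growth factor, was at 193 to 319.8 FPKM (median 217) against 0.937 to 2.69 FPKM (median 1.83). Slc12a1, the salt cotransporter that loop diuretics block, was at 58.5 to 155 FPKM (median 105) against 0 to 0.279 FPKM (median 0.108). Ptger3, a prostaglandin E2 receptor, was the exception, at 17.4 to 38.3 FPKM (median 20.6) in artery and 11.2 to 23 FPKM (median 17.8) in kidney cortex (difference 0.33 (SE 0.13), limma adjusted p = 0.0299); the call was lost on leaving out the library labelled wild-type kidney 3, deletion kidney 3, wild-type artery 2 or deletion artery 2, its highest artery.

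The distal segments followed. All 5 distal convoluted tubule genes tested were higher in kidney cortex, with a median of -3.80: Calb1, the calcium buffer calbindin, was at 180.2 to 429.6 FPKM (median 267) against 0.114 to 2.42 FPKM (median 0.483) and Slc12a3, the thiazide-sensitive cotransporter, at 87.6 to 212 FPKM (median 111) against 0.0568 to 0.505 FPKM (median 0.125). Trpv5, the calcium entry channel, was at 5.88 FPKM in kidney cortex, and Klhl3, an adaptor that controls that cotransporter, at 8.87 against 2.9 (medians). All 9 principal cell genes were higher in kidney cortex (median -3.76): Aqp2, the vasopressin-regulated water channel, stood at 45.1 to 101 FPKM (median 59.9) in the kidneys and was listed at 0 in 7 of 8 arteries. Hsd11b2, the enzyme that shields the aldosterone receptor from glucocorticoid, was at 64.1 to 139 FPKM (median 102) against 0.425 to 1.39 FPKM (median 1.11). Aqp3 and the sodium channel subunit Scnn1a differed by -5.89 (SE 0.13) and -3.76 (SE 0.15). Of 8 intercalated cell genes, 7 were called (median -5.04), led by the channel Aqp6 at 54.1 FPKM and the proton pump subunit Atp6v1b1 at 27.4 (kidney medians). The pump subunit Atp6v0d2 and the anion exchanger Slc26a4 differed by -5.10 (SE 0.19) and -5.33 (SE 0.18). The gene not called was Slc4a1, an exchanger that red cells also carry, at 166 FPKM in wild-type artery 4; 8 of 8 were called without that artery or without deletion artery 4.

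Podocyte genes did not move as a group: 5 were higher in kidney cortex, 2 higher in artery and 4 not called of 11, with a median of -0.48. Nphs1, nephrin of the filtration slit, was at 5.94 to 14.1 FPKM (median 6.8) against 0.0605 to 0.9 FPKM (median 0.15). The phosphatase Ptpro differed by -1.43 (SE 0.15). Plce1, a phospholipase, and Kirrel1, a relative of nephrin, were higher in artery, at 11.1 against 2.61 and 17.3 against 4.77 FPKM (medians). Genes of epithelial junctions and polarity were higher in kidney cortex in 24 of 24, with a median of -3.82.

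The largest differences were those of Scd in artery and Hao2 in kidney cortex. Among genes that averaged 20 FPKM or more in the higher tissue, the largest in artery was Scd, the desaturase that makes monounsaturated fatty acids (rn7, chr1:243269745-243282878), at 321 to 3892 FPKM (median 2314) against 0.246 to 1.09 FPKM (median 0.369), a difference of 10.99 (SE 0.37, limma adjusted p = 7.44e-14). Wild-type artery 2 was the lowest artery for Scd, and no other was below 1410 FPKM. Car3, Thrsp, Cfd, S100b, Scn7a, Actg2, Plin1, Adipoq and Trarg1 came next, with differences of 10.25 down to 7.61; Cfd encodes adipsin, Plin1 the coat protein of fat droplets and Actg2 the enteric smooth muscle actin. The largest in kidney cortex was Hao2, a peroxisomal hydroxy acid oxidase (chr2:186200137-186232997), at 1789.7 to 3855 FPKM (median 3149) against 0.088 to 3.66 FPKM (median 0.67), a difference of -11.27 (SE 0.32, limma adjusted p = 5.71e-15). Kap, Cltrn, Slc34a1, Miox, Glyat, Sult1c2a, LOC120102953 and Cyp2c23 were among those that followed, with differences of -10.75 to -9.86. LOC120102953 was at 189 FPKM in the library labelled wild-type kidney 3, its lowest kidney, against a median of 913.

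Transcription factors separated with the cell types. Of 25 tested factors of kidney epithelium, 25 were higher in kidney cortex, with a median of -3.71. Hnf4a, a nuclear receptor of proximal tubule and liver (rn7, chr3:152186787-152248320), was at 137 to 218 FPKM (median 205) against 0 to 1.37 FPKM (median 0.0486), a difference of -8.26 (SE 0.22, limma adjusted p = 2.39e-15). Tfcp2l1 of the collecting duct was at 51.5 to 103 FPKM (median 67.1) against 0.178 to 0.591 FPKM (median 0.284). Maf was expressed in both tissues, at 79 and 26.1 FPKM (medians). Of 28 tested factors of mesenchyme, muscle and fat, 24 were higher in artery and 2 in kidney cortex, with a median of 2.32. Pparg, the master regulator of fat cells, was at 32.7 to 55.5 FPKM (median 39.8) against 0.232 to 0.674 FPKM (median 0.505), Cebpa, its partner, at 50.4 to 115 FPKM (median 65.2) against 19.3 to 28.2 FPKM (median 21.9), and Zeb2 at 38 to 65.8 FPKM (median 60.2) against 5.04 to 9.29 FPKM (median 6.32). Ebf1 differed by 3.77 (SE 0.16). The exceptions were Tbx2, at 14.5 FPKM in kidney cortex against 2.29, and Tcf21, a factor of stroma and podocytes, at 12.3 against 5.15 (medians).

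The promoters of kidney-biased genes were searched for the words that HNF1 and HNF4 factors are known to bind, which are known regulators of tubule and liver genes. RefSeq promoters (GRCr8; 250 bases before a start) were matched by name to 12833 of the genes tested. The HNF1 word (GTTAAT, then 1 free base, then ATTAAC), on either strand with at most 2 mismatches, was in 41 of 318 promoters (12.9%) of genes at least 16-fold higher in kidney cortex, in 1 of 138 (0.725%) of those at least 16-fold higher in artery, and in 1.21% of all genes tested. With at most 1 mismatch it was in 9 of 318 (2.83%), in none of the 138 and in 0.195% of all. The HNF4 word CAAAGTCCA, on either strand with no mismatch, was in 6 of 318 (1.89%), none of 138 and 0.39% of all. The CArG box of serum response factor was in 2 of 138 (1.45%) of genes at least 16-fold higher in artery and in 1.43% of all genes tested, which are nearly the same share; at 4-fold it was in 22 of 961 (2.29%). A match is a run of letters, not a site shown to be bound, and genes without one may be bound elsewhere.

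Stretches of 4 promoters that hold the HNF1 word with at most 1 mismatch, and of a pair with the HNF4 word, are shown with the word in capitals, each on the strand of its gene; these genes were chosen after their values were seen. Cltrn encodes collectrin, which escorts amino acid transporters to the brush border, Pkhd1 fibrocystin, Pcbd1 a protein that also acts as the dimerization cofactor of HNF1, and Prodh2 a proline-family dehydrogenase. Slc3a1 encodes a subunit of the cystine transporter and Pdzk1 a scaffold of the brush border.
Cltrn: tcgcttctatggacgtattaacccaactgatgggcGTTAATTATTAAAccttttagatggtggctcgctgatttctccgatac
Pkhd1: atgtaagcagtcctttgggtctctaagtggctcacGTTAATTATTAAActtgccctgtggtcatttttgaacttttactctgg
Pcbd1: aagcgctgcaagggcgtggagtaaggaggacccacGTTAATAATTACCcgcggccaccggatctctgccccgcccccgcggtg
Prodh2: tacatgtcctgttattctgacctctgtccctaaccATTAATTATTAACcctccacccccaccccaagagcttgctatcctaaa
Slc3a1: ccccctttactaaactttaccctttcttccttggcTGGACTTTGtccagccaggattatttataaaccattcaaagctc
Pdzk1: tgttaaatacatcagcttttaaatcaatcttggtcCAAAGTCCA
On GRCr8 these are chrX:34027209-34027291 (minus strand), chr9:30533838-30533920 (minus strand), chr20:29581565-29581647 (plus strand), chr1:94880903-94880985 (plus strand), chr6:15394795-15394873 (minus strand) and chr2:187064951-187064994 (plus strand), in that order. The word begins 132, 51, 67, 149, 89 and 9 bases before the start of the gene, and in Slc3a1 it is the reverse complement. Cltrn was at 483 to 1587 FPKM (median 991) in kidney cortex against 0 to 0.422 FPKM (median 0.182) in artery, Slc3a1 at 418 to 1083 FPKM (median 903) against 0.046 to 2.89 FPKM (median 0.209), and Pdzk1 at 172 to 376 FPKM (median 266) against 2.99 to 7.01 FPKM (median 3.62). Pkhd1, Prodh2 and Pcbd1 differed by -6.62 (SE 0.15), -6.82 (SE 0.18) and -4.77 (SE 0.19); Pcbd1 was also present in artery, at 3.44 to 8.93 FPKM (median 4.75).

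Hox genes, whose order along the chromosome follows the head-to-tail axis of the embryo, differed by position in the cluster. Of 31 tested, 7 were higher in artery and 16 in kidney cortex, 6 and 16 without the library labelled wild-type kidney 3. Paralog groups 1 to 6 gave 6 higher in artery, 2 higher in kidney cortex and 8 not called of 16, with a median of 0.14. Groups 7 to 11 gave 1 and 14 of 15, with a median of -2.08. Hoxd8 was at 55.1 to 82.8 FPKM (median 60.9) in kidney cortex against 8.16 to 17.9 FPKM (median 9.57) in artery, Hoxa10 at 15.2 to 18.2 FPKM (median 17.2) against 0.758 to 8.84 FPKM (median 1.15) and Hoxd9 at 11.3 to 17.1 FPKM (median 12.7) against 1.83 to 5 FPKM (median 2.69). Hoxa10 was at 8.84 FPKM in deletion artery 2, the artery with the highest summed fat and mesothelial genes. Hoxc8 (rn7, chr7:134127937-134130503) was the exception among the later groups, at 4.3 to 7.74 FPKM (median 5.44) in artery against 0.891 to 1.68 FPKM (median 1.13), a difference of 1.91 (SE 0.14, limma adjusted p = 1.31e-09). Among the early groups Hoxa2 was higher in artery by 1.67 (SE 0.22). Hoxb2 and Hoxb6 were higher in kidney cortex, at differences of -1.18 (SE 0.12) and -0.93 (SE 0.19). For Hoxb2 every kidney was above every artery. The split by paralog group was made after the values were seen; over 5 other scalings 5 to 9 of the 31 were called higher in artery and 16 to 18 in kidney cortex.

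**Figure D4:**
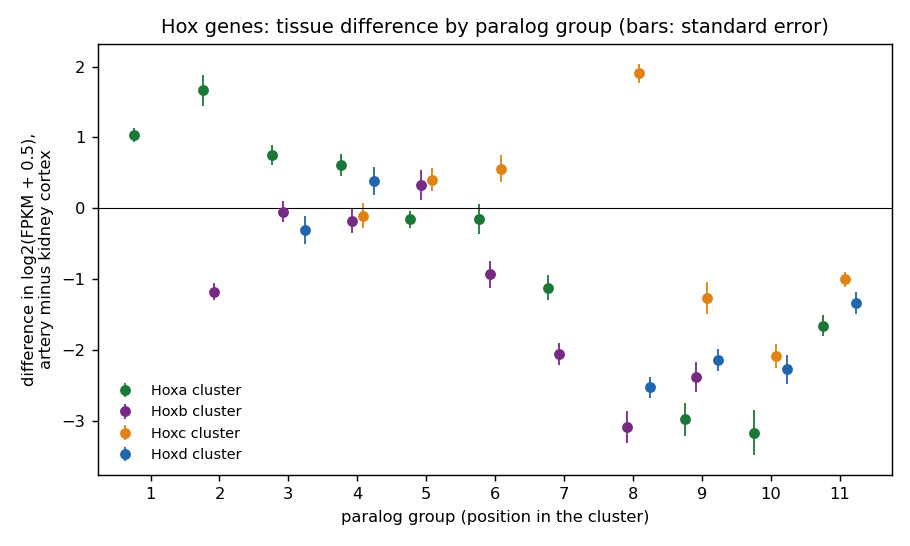
Difference in log2(FPKM + 0.5), artery minus kidney cortex (y axis), of the 31 tested Hox genes by paralog group (x axis), coloured by cluster, with bars of 1 standard error. Groups 1 to 6 lie around 0, with a median of 0.14, and groups 7 to 11 below it, with a median of -2.08, apart from Hoxc8 at 1.91.

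Genes of energy metabolism took opposite sides by pathway. All 38 nuclear genes of respiratory chain subunits were higher in kidney cortex, with a median of -1.61, and 36 of them without overlap. Atp5f1b, the catalytic subunit of ATP synthase, was at 950.3 to 1895 FPKM (median 1639) in kidney cortex and 286 to 489 FPKM (median 378) in artery, and Atp5f1a at 463 to 1014 FPKM (median 768) and 99.1 to 156 FPKM (median 125). Cox4i1, a subunit of cytochrome oxidase, differed by -1.44 (SE 0.19) and Cox6c by -0.94 (SE 0.18). The 13 protein-coding genes of the mitochondrial genome, examined after the nuclear values were seen, moved less: 5 were higher in kidney cortex and 8 were not called, with a median of -0.22 that became 0.14, with 3 called on each side, when libraries were set to the same sum. COX1 was at 6078 to 7902 FPKM (median 7391) in artery and 5422 to 13669 FPKM (median 8597) in kidney cortex, which overlap. ND5, ND3 and ND6 were higher in kidney cortex without overlap, by 1.16, 1.54 and 1.38; ND6 lies on the opposite strand from the others, and the sources used here do not give whether the counting used strand. COX2 and COX3 lost their calls under the same-sum scaling. The nuclear list kept 38 of 38 under it, with a median of -1.25.

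Fatty acid oxidation was higher in kidney cortex in 20 of 22 genes, with a median of -1.31 (18 of 22 under the same-sum scaling). Etfa, an electron carrier of the pathway, was at 112 to 183 FPKM (median 172) against 36.2 to 66.4 FPKM (median 49.1), and Acaa2 and Echs1, enzymes of the same pathway, differed by -1.33 (SE 0.18) and -1.68 (SE 0.15). Cpt1b, the muscle form of the carnitine transferase, was the 1 gene higher in artery, at 4.53 against 1.54 FPKM (medians). Gluconeogenesis was higher in kidney cortex in 6 of 6 tested genes: Pck1 was at 1129 to 1858 FPKM (median 1519) against 27.5 to 119 FPKM (median 92.4), and Fbp1 and G6pc1 at 453 and 153 FPKM in kidney cortex and under 1 FPKM in every artery. Amino acid metabolism gave 23 of 23 and a median of -6.21, with Dao, which oxidizes D-amino acids, at 271 to 523 FPKM (median 449.8) against 0 to 0.575 FPKM (median 0.096).

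Synthesis of fat was the reverse. Of 14 genes, 12 were higher in artery and none in kidney cortex, with a median of 3.43. Fasn, the fatty acid synthase, was at 104 to 884 FPKM (median 436) in artery against 7.06 to 10.8 FPKM (median 9.41). Thrsp, a lipogenic regulator, was at 134 to 584 FPKM (median 402) against 0.123 to 0.356 FPKM (median 0.17), and Dgat2, the last enzyme of triglyceride synthesis, at 166 to 399.8 FPKM (median 273) against 4.1 to 13.5 FPKM (median 10.9). The summed list was 1014 FPKM in wild-type artery 2 and 2422 to 6632 in the other 7. Cholesterol synthesis was mixed, with 3 higher in artery, 7 in kidney cortex and 5 not called of 15, which became 3 and 3 with a median turned from -0.24 to 0.11 under the same-sum scaling. Hmgcs1, an early enzyme, was higher in artery (30.7 against 11.1 FPKM, medians), as was Pmvk (difference 0.78 (SE 0.11)), and the later enzyme Fdft1 was higher in kidney cortex (33.2 against 12.4).

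Glycolysis gave 5 higher in artery and 9 in kidney cortex of 14, with a median of -0.73. Eno1, enolase, was at 376 to 759 FPKM (median 607) in kidney cortex against 69.6 to 126 FPKM (median 103), Gapdh at 334 to 532 FPKM (median 398) against 104 to 139 FPKM (median 119.8) and Tpi1 at 211 to 260.1 FPKM (median 226) against 62.5 to 105 FPKM (median 68.8). Hk2, the insulin-regulated hexokinase, was higher in artery (9.37 against 1.82 FPKM, medians), and so was Pfkp (13.4 against 7.2).

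Within gene families the leading member often changed with the tissue. FPKM is scaled by length, so levels were set side by side between genes. Reads shared between similar members may still shift them, and small leads are uncertain. In 18 of 31 families the member with the highest mean in artery was not the one in kidney cortex, and in 23 the family had called members in both directions (22 without the library labelled wild-type kidney 3). By medians the leader differed in 16 of 31, and in these 16 the leaders still differed on leaving out each library. The other two were the type IV collagens and the bicarbonate transporters. Col4a4 led in kidney cortex by its mean only with the library labelled wild-type kidney 3, where it was at 146 FPKM; the kidney medians were 70.4 for Col4a1 and 65.7 for Col4a4. Among fatty acid binding proteins, Fabp4 led in artery and Fabp3 in kidney cortex (34 to 66.7 FPKM (median 40.3) against 1.02 to 2.34 FPKM (median 1.4)). Among glucose transporters, the insulin-responsive Slc2a4 led in artery (17.2 to 42.7 FPKM (median 27.3) against 0.552 to 1.31 FPKM (median 0.909)) and Slc2a2 of proximal tubule and liver in kidney cortex (24.2 to 47.2 FPKM (median 35.9) against 0 to 0.226 FPKM (median 0.0396)). Of the lactate dehydrogenases, Ldha led in artery (difference 0.61 (SE 0.10)) and Ldhb in kidney cortex (-2.03 (SE 0.15)). Pfkp led over Pfkm in artery by a small margin, with medians of 13.4 and 11.3 FPKM, and Pfkm led in kidney cortex (19.3 against 7.2).

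Subunits of the sodium pump differed in the same way. Of the beta subunits, Atp1b3 led in artery (69.5 to 89.4 FPKM (median 75.6) against 45.8 to 60.0 FPKM (median 52.3)) and Atp1b1 in kidney cortex (941 to 1045 FPKM (median 982) against 7.97 to 10.6 FPKM (median 9.87)). Of the FXYD proteins that tune the pump, Fxyd1, phospholemman, led in artery (56.8 to 114 FPKM (median 92.1) against 1.57 to 3.47 FPKM (median 2.48)) and Fxyd2, the gamma subunit, in kidney cortex (736 to 1474 FPKM (median 819.8) against 10.1 to 17.7 FPKM (median 14.2)).

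Junction and cytoskeleton families did the same. Cdh5 of endothelium led the cadherins in artery and Cdh16 of tubules in kidney cortex, at 129 to 169 FPKM (median 147) against 0 to 0.302 FPKM (median 0.0769). The connexins led with Gja5 in artery (difference 3.70 (SE 0.20)) and Gjb2 in kidney cortex (39.9 against 1.82 FPKM, medians), and the claudins with Cldn5 and Cldn2 (-6.42 (SE 0.17)). Carbonic anhydrases led with Car3 and Car12 (-8.06 (SE 0.19)), and PPAR receptors with Pparg and Ppara (-2.57 (SE 0.14)). Myh11 and Tpm1 led in artery. In kidney cortex Myh9 and Tpm3 led, which were not called between tissues (differences 0.072 (SE 0.091) and -0.17 (SE 0.10)) and change sign with the scaling. Without deletion kidney 3, Tpm4 led the tropomyosins in kidney cortex. Slc4a1 led the bicarbonate transporters in artery by its mean, which rested on 166 FPKM in wild-type artery 4; by the median, or without that artery, Slc4a4 led in both tissues. Slc4a4 of the proximal tubule was in kidney cortex at 153 to 283 FPKM (median 247) against 13.1 to 22.3 FPKM (median 14.2).

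**Figure D5:**
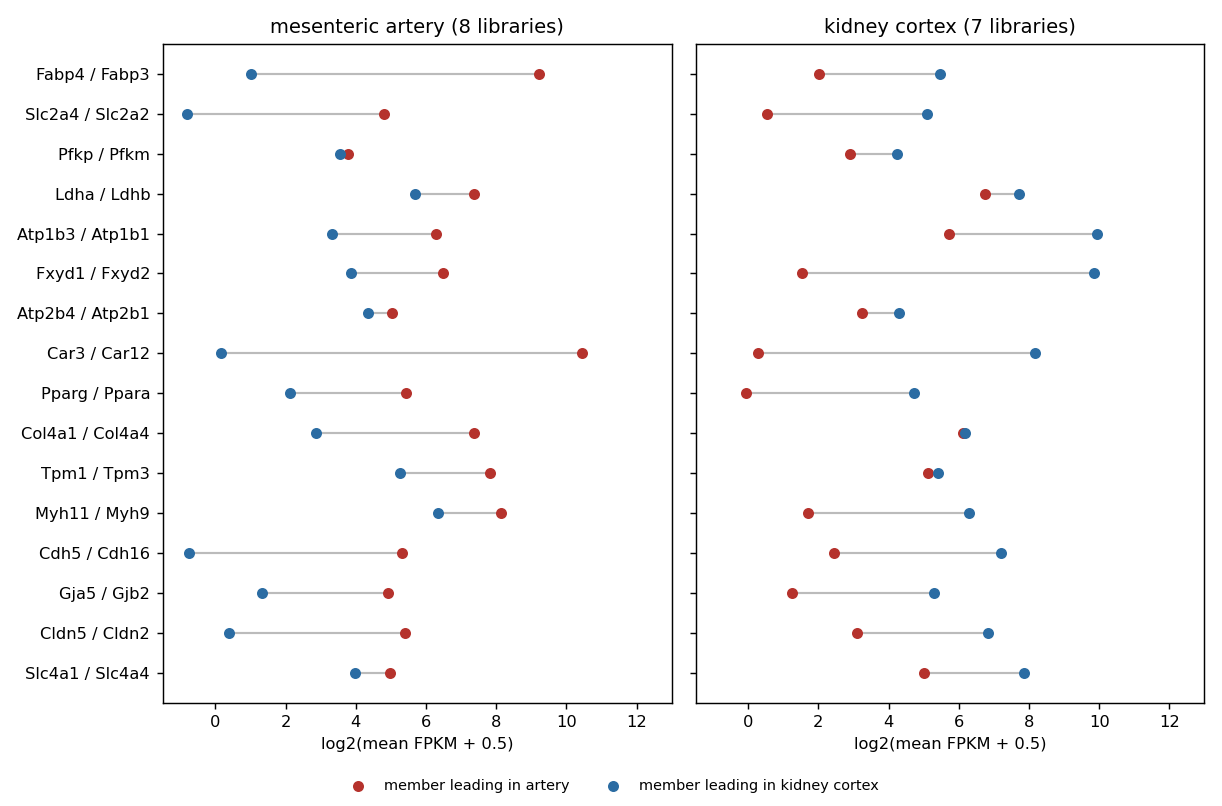
Levels as log2(mean FPKM + 0.5) (x axis) of the 2 leading members of 16 of the 18 families (y axis) whose leader by mean differed between tissues, in mesenteric artery (left, 8 libraries) and kidney cortex (right, 7 libraries). The 16 shown include the type IV collagens, whose leader did not differ between tissues by medians. Red dots, the members leading in artery, lie to the right of blue dots in the left panel and to the left of them in the right panel; the pairs Pfkp and Pfkm in artery and Col4a1 and Col4a4 in kidney cortex nearly coincide.

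Genes of vasoconstrictor and vasodilator signalling were mostly higher in artery, in 22 of 30, with 4 higher in kidney cortex and a median of 1.45. Gucy1a1, a subunit of the nitric oxide receptor, was at 45.7 to 78.9 FPKM (median 62) in artery against 8.45 to 24.6 FPKM (median 14.4). Pde3a, which breaks down cyclic AMP, was at 21.7 to 37.8 FPKM (median 33.2) against 1.63 to 4.82 FPKM (median 2.91), and P2rx1, the ATP-gated channel of arterial muscle, at 14.7 to 40.1 FPKM (median 28.8) against 0.364 to 0.945 FPKM (median 0.565). Npr3, the clearance receptor of natriuretic peptides, lies beside the deleted interval (rn7, chr2:60865483-60933432) and was at 19.1 to 42.6 FPKM (median 28.1) against 4.39 to 10.7 FPKM (median 5.05) over both genotypes. The adrenergic receptors Adra2b and Adra1b were higher in kidney cortex, at 34.1 to 48.7 FPKM (median 45.2) against 0.286 to 0.666 FPKM (median 0.409) and at 3.26 against 0.526 FPKM (medians).

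Immediate early genes, a rapid response class that handling can induce, were higher in artery in 19 of 23 and higher in kidney cortex in 2, with a median of 1.33. The phosphatase gene Dusp1 was at 34.1 to 74.5 FPKM (median 44.4) in artery against 4.25 to 9.06 FPKM (median 6.92), the flow-responsive factor Klf2 at 19.7 to 45.2 FPKM (median 36.7) against 5.78 to 9.33 FPKM (median 6.94), and Klf6 and Ccn1 differed by 1.42 (SE 0.13) and 1.97 (SE 0.22). Jund and Ier3 were higher in kidney cortex, at differences of -0.79 (SE 0.13) and -0.68 (SE 0.16). Handling times of the tissues are not given in the sources used here, and their part was not tested.

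Of 17 genes often used as qPCR references, 13 differed between the tissues, a share near the 77.4% of all genes tested. Of these, 4 were higher in artery and 9 in kidney cortex, which became 7 and 8 under the same-sum scaling. Pgk1 was at 159 to 269.9 FPKM (median 212) in kidney cortex against 38.5 to 55.6 FPKM (median 47.6), and Ppia and Ywhaz differed by -0.71 (SE 0.16) and -0.52 (SE 0.10). B2m was at 268 to 394 FPKM (median 315) in artery against 127 to 179 FPKM (median 151), and Actb at 1054 to 1389 FPKM (median 1143) against 646 to 943 FPKM (median 797). Rplp0, Rpl13a, Polr2a and Gusb were not called, with 95% intervals of the log2 difference of 0.0036 to 0.44, -0.18 to 0.52, -0.23 to 0.057 and -0.17 to 0.24. Under the same-sum scaling Rplp0, Rpl13a and Gusb were called higher in artery. Polr2a and Gusb change sign with the scaling.

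Likeness was asked of the interval rather than of a missed threshold. For 3143 genes (17.6%) the 95% interval of the log2 difference lay within 0.5 of 0, which was 3205 without the library labelled wild-type kidney 3. The 6 most abundant were CYTB, a mitochondrial gene, and the ribosomal genes Rpl7, Rplp0, Rps14, Rpl4 and Rpsa, whose reads may be shared with processed copies. Rpsa was at 257 to 328 FPKM (median 294) in artery and 213 to 316 FPKM (median 256) in kidney cortex, and Rpl7 at 347 to 673 FPKM (median 520.3) and 384 to 617 FPKM (median 462). Under the same-sum scaling Rpl7, Rplp0, Rpl4 and Rpsa were called higher in artery, and CYTB, Rpl7 and Rps14 change sign under at least 1 scaling.

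Among the most abundant transcripts, Rn7sl1 was at 7899 to 46187 FPKM (median 12753) in artery and 32323 to 94103 FPKM (median 51273) in kidney cortex, and Rpph1, the RNA of ribonuclease P, at 568 to 1676 FPKM (median 1139) and 1515 to 6878 FPKM (median 2616). Gpx3, the glutathione peroxidase secreted into plasma, was among the 10 highest genes of kidney cortex, at 2774 to 8883 FPKM (median 6761) against 130.4 to 213 FPKM (median 173) in artery.

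The spread within a tissue was small beside these differences. Over 12194 genes averaging 1 FPKM or more in both tissues, the median SD of log2(FPKM + 0.5) within a tissue was 0.20 in artery and 0.23 in kidney cortex. Among the genes that varied most within kidney cortex were several that stood apart in the library labelled wild-type kidney 3. Adh6 was at 172 FPKM in it and at 0.346 to 0.805 in the other 6, and Akr1b7 at 72.3 against at most 0.0427. The organic anion transporter Slco1a1 was at 0.0505 FPKM in it against 50.0 to 133, and Dhrs7l1 at 0.0693 against 85.6 to 297. In artery the most variable genes included Marco, Clec4m and Jchain, each highest in wild-type artery 3.

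The tissue difference was also compared between genotypes. By the limma interaction of tissue and genotype, 0 of 17842 genes (0%) passed an adjusted p under 0.05, and 768 (4.3%) had an unadjusted p under 0.05. In wild-type libraries alone 6355 and 5321 genes were higher in artery and kidney cortex, and in deletion libraries alone 6262 and 5492.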

How the data were processed

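The authors deposited 1 table with FPKM per gene for 15 libraries and a coverage signal column that names no sample; that 1 column was not used. The submitters' processing notes list the build rn7, HISAT2 2.2.1, Trim Galore 0.6.2 and DESeq2 1.46.0, with no role, and the sources used here do not give the program behind the FPKM. Rows without a gene name (6337 of 40694) were left out. Genes averaging 0.5 FPKM or more in either tissue were tested as log2(FPKM + 0.5) with limma 3.58.1 in R 4.3.3. The fit used moderation with trend and the robust option, genotype as covariate and Benjamini-Hochberg adjustment. A simulation changed 100 genes at each log2 size of 1 and 2. It recovered 90% and 99%, with 5.97% false among those called. Far fewer genes were changed in it than were called here, so it does not measure the error of this contrast. FPKM keep no counts, so no count test was run.

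The members and gene lists were chosen with earlier results of these data known. Named genes are the 6 markers, up to 4 called genes per list by level with up to 2 exceptions, the 10 most abundant and 10 most different genes per tissue, the leading member of each family, the 6 most abundant equal genes and the 8 most variable genes per tissue. The mitochondrial genes, the sex-linked genes, the genes whose promoters are shown, the genes of a list named as not tested or not called, and other genes outside this rule were chosen after their values were seen. Alternatives covered pseudocount, filter, scaling, moderation, weights, covariate, replicate block, genotype and each library left out. Some members of these lists are not reported here.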

Additional observations from a re-analysis of the deposited data

Results flagged for a closer look

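Of 400 groups of libraries (200 of the genes named above, in each tissue), 44 (11%) held a highest or lowest library far from the rest. This used Dixon's criterion on log2(FPKM + 0.5), which independent, normally distributed values meet in about 1 in 20 groups. Some flagged values lie near 0 and flagged genes share libraries, so that rate is not a test of the 11%. The sex-linked genes, Adh6, Akr1b7, Slco1a1 and Dhrs7l1 were not among the 200, so this share leaves them out. All values here are FPKM.

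In artery, 8 genes stood apart in wild-type artery 2. Scd was low in it, at 321, against 1410 to 3892 in the other 7. Kidney genes were slightly above the other arteries there: Aqp2 0.2927, Cdh16 0.302, Dao 0.5747, LOC120102953 1.261, Pkhd1 0.2145, Slc12a3 0.5046 and Trpv5 0.1765. Deletion artery 2 was highest for Cebpa (115.3), Echs1 (79.61), Hoxa10 (8.84, others 0.7582 to 1.328), Hoxd9 (5.002), Ptger3 (38.27) and Trarg1 (177). Wild-type artery 1 was highest for the epithelial genes Epcam (4.429), Hnf4a (1.367), Pdzk1 (7.009) and Vil1 (5.912) and lowest for Gusb (5.629) and Pfkp (11.08). Deletion artery 1 was lowest for Klf2 (19.66) and Vwf (75.5), and wild-type artery 3 for Col4a1 (109.3).

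In kidney cortex, deletion kidney 2 was lowest for 9 genes, most of them of the proximal tubule: Adra2b 34.08, Dao 270.7, Echs1 107.3, Etfa 112, Gjb2 19.17, Glyat 496.7, Hnf4a 137, Lrp2 386.8 and Miox 650.2. The library labelled wild-type kidney 3 was lowest for Alas2 (6.09), Car12 (207.7), Dgat2 (4.098), Hba-a1 (891.5) and LOC120102953 (188.6, others 613.2 to 1067), and highest for Fabp3 (66.74), Fdft1 (65.05), Gfra3 (15.2), Plin1 (2.04, others 0.02923 to 0.06564) and Prss1 (0.04694). Ms4a1 was highest in deletion kidney 4 (0.143) and Cma1 in wild-type kidney 1 (0.2011). The genes left out above, which stood apart in the library labelled wild-type kidney 3, are not counted here.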

How the results depend on the processing

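Of the same 200 genes, 187 were called between the tissues. Of these, 169 kept their direction and call under all 31 alternatives, and 18 lost the call under at least 1. Of 13 not called, 10 passed under at least 1. Many of the 200 were named because they were called in these data. These shares thus do not describe all genes tested, of which 77.4% were called. Scaling to the mean FPKM sum and testing protein-coding genes only were chosen after seeing the data. The count of genes at least 4-fold higher in artery went from 1352 to 2333 with a pseudocount of 0.1, 2496 with every FPKM sum set to that of TPM and 2623 when haemoglobin, Rn7sl1 and mitochondrial genes were left out of that sum. The count of genes equal within 0.5 went from 3143 to 11612 with no filter, 1787 at the TPM sum and 1393 in wild-type libraries only. Leaving out each library gave 7230 to 7789 genes higher in artery, 6080 to 6248 in kidney cortex, 1310 to 1427 and 1296 to 1343 past 4-fold, 2914 to 3205 equal and 0 for the interaction.

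Signs turned for these genes (log2 difference). At the TPM sum, COX1 0.136, CYTB 0.343, Tpm3 0.188, Polr2a 0.269 and Rps14 0.329; at the mean sum, 0.136, 0.343, 0.187, 0.266 and 0.329; without haemoglobin, Rn7sl1 and mitochondrial genes, 0.111, 0.318, 0.163, 0.244 and 0.303. With quantile normalization, CYTB 0.615, COX2 0.0846, Tpm3 0.166, Ywhaz 0.00522, Polr2a 0.139 and Rps14 0.448. With median-of-ratios scaling, Myh9 -0.0803, Gusb -0.106 and Rpl7 -0.0804. With array weights, CYTB 0.104 and Gusb -0.0322. In wild-type libraries only, COX1 0.111, CYTB 0.356, Rpl13a -0.0525, Gusb -0.0546 and Rpl7 -0.148; in deletion libraries only, Myh9 -0.0126 and Rps14 0.284. Without single libraries, CYTB ranged from -0.0976 to 0.156 and Rps14 ranged from -0.139 to 0.0887. The cause was not tested.

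Same-numbered artery and kidney libraries correlated in their deviations from group means at -0.0807 to 0.222. The highest correlation of a kidney with an artery of another number and the same genotype ran from 0.00258 to 0.146. Weak correlation between unlike tissues cannot show whether libraries share an animal, so pairing by number remains unknown. With the replicate block, 7564 and 6093 genes were called, 1357 and 1304 past 4-fold, 2945 were equal and 0 passed the interaction; CYTB was 0.00582.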

Other observations

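Some regional factors were present in every artery and at or near 0 in the kidneys; these genes were chosen after their values were seen. Nkx2-3, a homeodomain factor of gut and spleen mesenchyme, was at 5.91 to 11.1 FPKM in the arteries and listed at 0 in all 7 kidneys. Hand2, a factor of sympathetic neurons and mesenchyme, was at 2.74 to 4.29 FPKM and likewise listed at 0 in all 7 kidneys. Ebf2, a factor of fat cell precursors, was at 9.25 to 13.6 FPKM in the arteries and at most 0.0171 in the kidneys.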
